A study of Mus musculus with 23 samples.

Results

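Germinal vesicle (GV) oocytes of wild-type mice were compared between females of 3 months and females of 3 weeks, with 3 RNA sequencing libraries at each age. The genes described are those with an FPKM (fragments scaled to transcript length and to the library's mapped total) of at least 1 in at least 2 of these 6 libraries. This rule kept 11071 of the 24411 genes in the table. The series was built around loss of Cxxc1, the gene of CFP1, a protein that binds unmethylated CpG DNA and belongs to complexes that place H3K4 methylation. For comparison, GV oocytes after deletion of floxed Cxxc1 were used, from 3-week females with Zp3-Cre, which acts in growing oocytes, and from 3-month females with Gdf9-Cre, which acts from an earlier follicle stage. Levels in zygotes and 2-cell embryos of wild-type and Zp3-Cre females are given where they help to place a gene. No deletion or transgene is named for the wild-type groups, and age is the only difference that their labels give. The labels state no strain, no hormone treatment, no number of oocytes per library and no separate animals. The p-values therefore reflect how far libraries of a group spread, over all groups of the study, and that spread may be technical.

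A GV oocyte is arrested in the first meiotic prophase. During growth it stores mRNA, proteins and lipid droplets, and when it is fully grown its own transcription stops until the embryo's genome is switched on. Oocytes of 3-week mice come mostly from the first wave of follicles that start to grow soon after birth, while those of 3-month mice come from adult, cycling females. Lipid droplets are coated by perilipins such as Plin2, and the patatin-like hydrolase encoded by Pnpla3 acts on the lipid they hold.

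The 3-month libraries also differed from the others in entries that are not mouse genes. The table held 92 entries of the ERCC set of synthetic control RNAs and 3 entries named RGC, which were left out of all gene tests. The sources used here do not say what the RGC entries are. The ratio of RGC-GFP to RGC-mRFP was 3.40, 3.13 and 3.34 in the 3-week wild-type libraries and 0.410, 0.445 and 0.408 at 3 months. Across the 17 libraries other than the 3-month ones it lay between 3.01 and 3.65, and across the 6 3-month libraries of both genotypes between 0.408 and 0.478. The ratio of ERCC-00004 to ERCC-00002 likewise lay between 1.31 and 2.09 in those 17 libraries and between 0.541 and 0.731 in the 3-month libraries. The ERCC and RGC entries thus had another composition in every 3-month library. Age cannot be told apart from whatever else differed between the preparations. All differences below are differences between these libraries.

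The 6 libraries held 10525 to 10701 genes at an FPKM of at least 1. FPKM carries no read counts, so depth is unknown in absolute terms. Relative depth, judged from the steps of low values, ran from 0.99 to 1.39. FPKM over all genes summed to 386692 to 391165 at 3 weeks and to 376588 to 380043 at 3 months (exact permutation test, two-sided, p = 0.10, the smallest that 3 against 3 allows). Pearson correlations across genes were 0.989 to 0.992 within an age and 0.978 to 0.981 between ages. The 12 oocyte markers, among them Gdf9, Zp3 and Mos, were all above an FPKM of 1 in both groups, and their summed FPKM was 9586 to 9708 at 3 weeks and 9065 to 9311 at 3 months. None of the 12 passed the test. Cxxc1 was at 39.9, 37.9 and 41.5 FPKM at 3 weeks and 35.7, 36.0 and 38.5 at 3 months, and these ranges overlapped (log2 fold change -0.11 ± 0.260, SE; limma adjusted p = 0.927).

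Gene counts past the test were modest beside the size of the transcriptome. Of the 11071 genes, 502 (4.53%) passed at a limma adjusted p under 0.05. Among these, 308 (2.78%) were higher at 3 months and 194 (1.75%) were lower. Large changes were mostly falls, with 77 genes (0.696%) at least 2-fold lower and 22 (0.199%) at least 2-fold higher after adding 1 to FPKM, a step that shrinks the change of genes with low values. Many of the large falls were of sparse transcripts: the median 3-week FPKM of the 77 genes was 2.89, and 61 of them passed the FPKM rule through the 3-week libraries only. Among genes with a mean FPKM of at least 5, 9 were at least 2-fold higher and 11 at least 2-fold lower. The median log2 fold change over all 11071 genes was -0.01, with quartiles of -0.17 and 0.15. The test took its spread from all 23 libraries of the study. A gene that varied among deletion oocytes or embryos thus got a larger SE, even where its wild-type GV libraries lay close together. A fit on the 6 wild-type GV libraries alone called 1381 genes higher (12.5%) and 1529 lower (13.8%), and 500 of the 502 genes were called in both fits in the same direction. Without Zp3-Cre 2-cell library 3, known from an earlier look at these data to stand apart, the fit of the study's libraries called 792 genes.

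**Figure D1:**
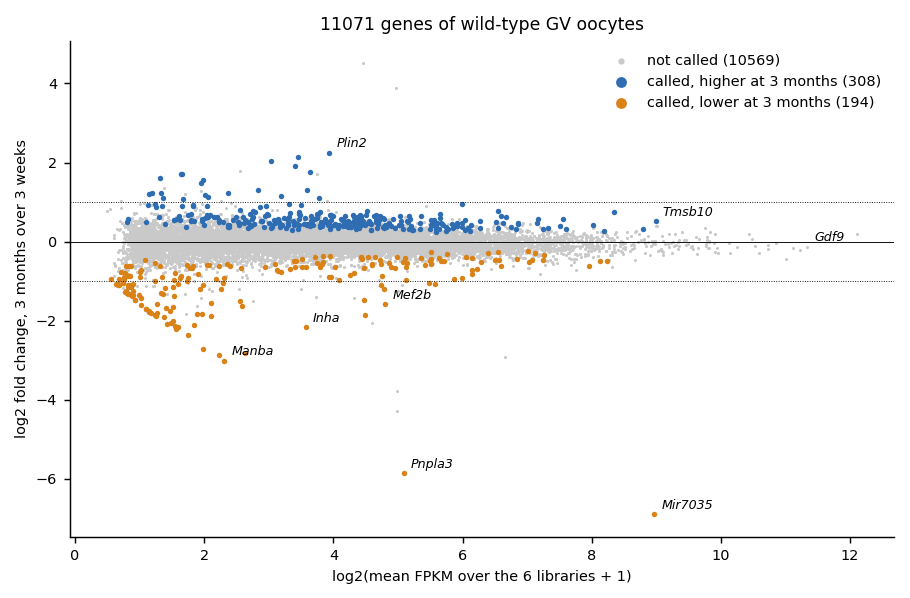
Mean level (log2 of the mean FPKM over the 6 libraries plus 1, x axis) and log2 fold change of 3 months over 3 weeks (y axis) of the 11071 genes; blue points passed the test as higher (308), orange points as lower (194), grey points did not pass, and dotted lines mark 2-fold. Most of the large falls lie at low FPKM, while Pnpla3, Inha and Mef2b lie at higher levels, and Gdf9 did not pass.

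The largest fall among well-measured genes was that of Pnpla3. Pnpla3 was at 64.3, 66.5 and 67.1 FPKM at 3 weeks and at 0.180, 0.104 and 0.181 FPKM at 3 months (log2 fold change -5.86 ± 0.329, SE; limma adjusted p = 1.23e-09). All 3-week values were far above all 3-month values. A lack of overlap was required of the genes named for the largest changes or as most abundant, so it is no added support for them. It held for 2336 genes higher and 2437 lower at 3 months among the 11071, called or not. Deletion oocytes held 0.304 FPKM of Pnpla3 on average at 3 weeks and 0.160 at 3 months, so among the 4 GV groups the 3-week wild type alone was high. In the other lipid-droplet gene that passed, the change had the opposite sign. Plin2, which encodes a coat protein of lipid droplets, was at 5.08, 4.22 and 3.71 FPKM at 3 weeks and at 23.5, 24.9 and 24.2 FPKM at 3 months (log2 fold change 2.25 ± 0.497, SE; limma adjusted p = 0.0124). The ages did not overlap, but the call of Plin2 was lost without 3-week library 3 or 3-month library 2, with an adjusted p of up to 0.0581. Plin2 was variable in the deletion oocytes, at 14.0, 16.1 and 84.9 FPKM at 3 weeks and at 55.7, 40.1 and 19.4 FPKM at 3 months. Of the 35 lipid-droplet, triglyceride and phospholipid genes, 1 rose, 1 fell and 33 did not pass. This is near the 2.78% called higher and 1.75% called lower over all genes. The median log2 fold change of the 35 was -0.07.

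The 250 bases before the RefSeq starts of Pnpla3 and Plin2 are shown because these genes moved in opposite directions, and those of Samm50 because it lies next to Pnpla3 and also fell. The sequences are from RefSeq on GRCm38.p6, at chr15:84167566-84167815 (plus strand), chr15:84191990-84192239 (plus strand) and chr4:86670060-86670309 (minus strand), and capitals mark CpG dinucleotides.
Pnpla3: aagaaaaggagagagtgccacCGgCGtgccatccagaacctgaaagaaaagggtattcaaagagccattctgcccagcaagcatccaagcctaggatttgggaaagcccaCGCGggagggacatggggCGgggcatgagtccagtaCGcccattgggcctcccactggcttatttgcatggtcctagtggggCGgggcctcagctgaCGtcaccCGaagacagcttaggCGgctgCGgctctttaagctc
Samm50: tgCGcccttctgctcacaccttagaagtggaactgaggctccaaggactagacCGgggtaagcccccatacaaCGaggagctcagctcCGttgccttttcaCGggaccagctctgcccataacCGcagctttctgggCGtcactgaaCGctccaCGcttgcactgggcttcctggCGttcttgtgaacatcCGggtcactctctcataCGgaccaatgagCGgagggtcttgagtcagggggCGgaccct
Plin2: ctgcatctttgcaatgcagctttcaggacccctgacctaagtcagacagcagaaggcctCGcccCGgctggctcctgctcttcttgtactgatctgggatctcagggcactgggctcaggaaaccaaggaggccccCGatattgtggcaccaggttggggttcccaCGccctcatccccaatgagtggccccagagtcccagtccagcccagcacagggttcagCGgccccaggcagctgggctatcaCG
These windows hold 11 CpG in Pnpla3, 14 in Samm50 and 6 in Plin2. The median was 16 over the 8461 promoters matched by symbol to the genes described and 6 over all 27025 RefSeq promoters. The Pnpla3 window also holds 1 copy of TGACGTCA, the full cyclic-AMP response element, which reads the same on both strands and was found in 2.92% of the 8461 promoters.

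Samm50 encodes a subunit of the machinery that inserts proteins into the outer mitochondrial membrane. It was at 38.4, 34.0 and 34.2 FPKM at 3 weeks and at 18.1, 14.4 and 15.6 FPKM at 3 months (log2 fold change -1.10 ± 0.209, SE; limma adjusted p = 0.00393), with no overlap. Deletion oocytes were at 19 FPKM of Samm50 at 3 weeks and 18.4 at 3 months, close to the 3-month wild type. Further mitochondrial genes fell. Ccdc109b, a dominant-negative relative of the mitochondrial calcium uniporter, was at 34.0, 36.7 and 31.6 FPKM at 3 weeks and at 9.86, 8.02 and 8.25 FPKM at 3 months, a log2 fold change of -1.86. Mtfr2, a regulator of mitochondrial fission, was at 80.7, 83.9 and 80.8 FPKM at 3 weeks and at 44.1, 42.3 and 42.7 FPKM at 3 months, a log2 fold change of -0.91. Both sets of values were separate by wide margins. The pore-forming uniporter gene Mcu moved the other way, from a mean of 30.7 to 40.9 FPKM (log2 fold change 0.40, adjusted p = 0.0409), although its call was lost when any 1 of the 6 libraries was left out.

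**Figure D2:**
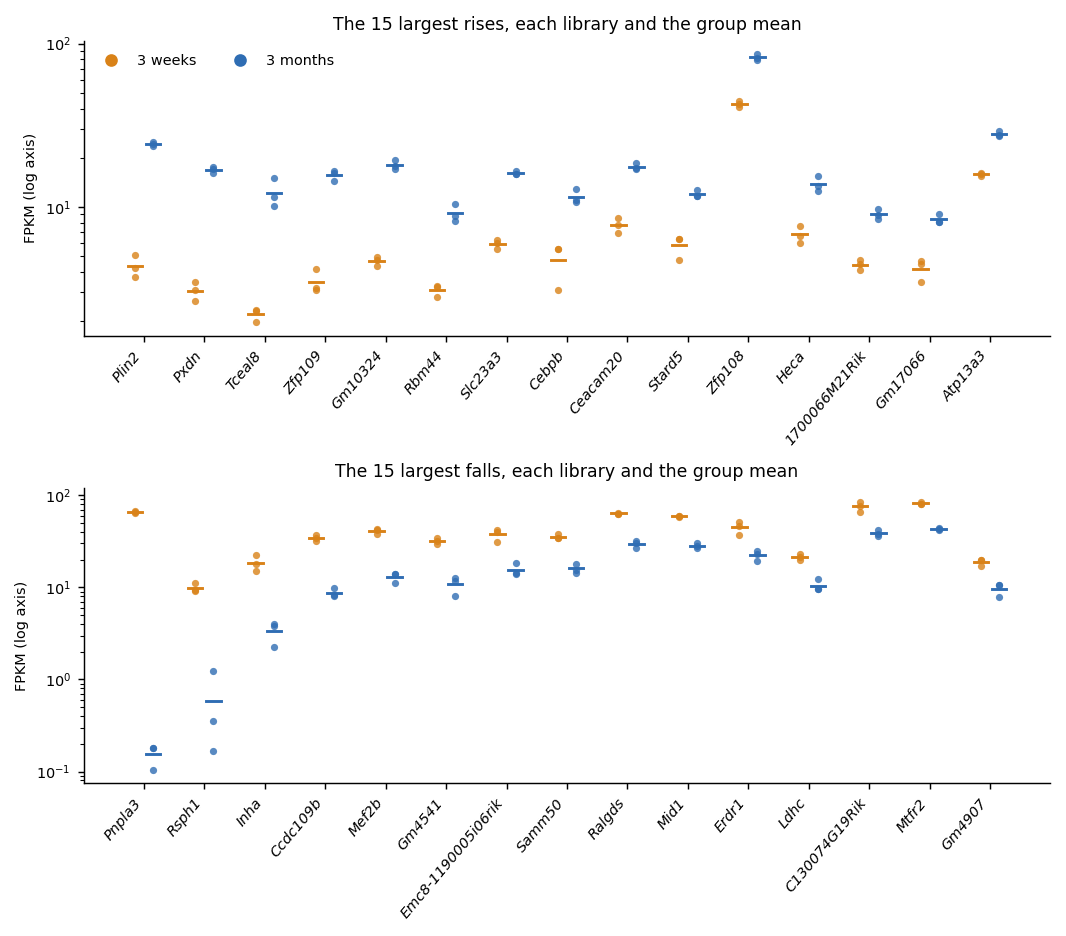
FPKM in each library (points, log axis) and group mean (bar) of the 15 largest rises and the 15 largest falls among called genes with a mean FPKM of at least 5 and no overlap; orange is 3 weeks and blue 3 months. Pnpla3 stands at 64.3 to 67.1 FPKM at 3 weeks and at most 0.181 at 3 months.

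Several other genes had a high group mean in the 3-week wild type alone among the GV groups, and of those described Manba, Pknox2, Nfam1 and Mir7035 were chosen after their values were seen. Manba, which encodes the lysosomal beta-mannosidase, was at 7.31, 9.23 and 6.95 FPKM at 3 weeks and at 0.0463, 0 and 0.233 at 3 months (log2 fold change -3.01, adjusted p = 4.02e-08). Its mean was 0.314 FPKM in Zp3-Cre and 0.435 in Gdf9-Cre oocytes. Slc39a8, a zinc and manganese importer gene, was at 5.91, 7.23 and 4.48 FPKM at 3 weeks and at 0.0506, 0 and 0.0363 at 3 months, a log2 fold change of -2.72. Slc39a8 was at 0.274 FPKM in Zp3-Cre and 0.05 in Gdf9-Cre oocytes, so its 3-week wild-type values again stood alone. The homeobox gene Pknox2 was at 2.54, 3.06 and 2.65 FPKM at 3 weeks and at 0.0496, 0.144 and 0.0345 at 3 months, and at 0.112 and 0.279 FPKM in the deletion groups. In all, 9 of the 99 genes with at least 2-fold changes had a mean FPKM plus 1 at least 2-fold higher in the 3-week wild type than in each of the other 3 GV groups. These were Pnpla3, Manba, Slc39a8, Pknox2, Nfam1, Ccdc109b, Ralgds, the gene model Gm4541 and Mir7035. The 3-week Zp3-Cre library 3 stood apart from its group in a pair of them. Nfam1 was at 0.205, 0.512 and 4.39 FPKM in the Zp3-Cre libraries, the last of them close to the 3-week wild type, and Ralgds at 16.5, 16.1 and 50.3 FPKM. Mir7035 was listed at 0 in 1 of the 3-week libraries, at 2249.6 and 748 FPKM in the other two, and at 0 in every 3-month library, and FPKM of so short a gene is unreliable.

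By group means, 6 genes had an FPKM plus 1 at least 2-fold lower in the 3-week wild type than in each other GV group. These were Plin2, Pxdn, Tceal8, Slc23a3, Zfp36 and the gene model Gm10324. Pxdn met this through 3-week Zp3-Cre library 3 only, and that library was also the highest of its group for Plin2 and, at 43.4 FPKM, for Tceal8. Gm10324 was at 4.70, 4.96 and 4.32 FPKM at 3 weeks and at 17.7, 17.1 and 19.5 at 3 months (log2 fold change 1.75 ± 0.104, SE; limma adjusted p = 2.28e-09), and at 21.6 and 28.2 FPKM in the deletion groups. Slc23a3, a member of the nucleobase and ascorbate transporter family, was at 5.56, 6.24 and 6.04 FPKM at 3 weeks and at 15.9, 15.8 and 16.7 at 3 months, a log2 fold change of 1.30. For both genes every 3-month value was above every 3-week value. Tceal8, of the transcription elongation factor A-like family, went from 1.96, 2.31 and 2.34 FPKM to 11.5, 10.1 and 15 FPKM (log2 fold change 2.03, adjusted p = 0.0124). Its call was lost without 3-week library 1 or 3-month library 3, with an adjusted p of up to 0.0642. Pxdn, which encodes the peroxidasin that cross-links collagen IV in basement membranes, went from 3.10, 2.64 and 3.47 FPKM to 17.1, 16.1 and 17.5 FPKM (log2 fold change 2.14, adjusted p = 0.0349). Its call was lost when any 1 of the 6 libraries was left out, with an adjusted p of up to 0.112. Among the 3-week Zp3-Cre libraries Pxdn was at 1.28, 1.81 and 20.2 FPKM, so libraries 1 and 2 were below every 3-week wild-type library.

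The rises also took in regulators of transcription and RNA. Rbm44, an RNA-binding protein gene known from germ cells, was at 3.26, 3.24 and 2.79 FPKM at 3 weeks and at 8.80, 10.4 and 8.22 at 3 months, a log2 fold change of 1.30. Cebpb, which encodes a leucine-zipper transcription factor, was at 5.53, 3.11 and 5.53 FPKM at 3 weeks and at 10.7, 12.9 and 11.0 at 3 months, a log2 fold change of 1.16. Neither gene overlapped between ages, which the naming rule required. The call of Cebpb was lost without 3-week library 2 (adjusted p = 0.0588). Heca rose from a mean of 6.78 to 13.8 FPKM, Ceacam20, of the carcinoembryonic antigen family, from 7.77 to 17.6, and Atp13a3, a polyamine-transporting ATPase gene, from 15.9 to 28.0. Among the most abundant called genes the rises were smaller. Tmsb10, an actin-sequestering thymosin, went from a mean of 415 to 598 FPKM (log2 fold change 0.52). Btg4, the adaptor that brings the CCR4-NOT deadenylase to maternal mRNA, went from 395, 381 and 400.3 FPKM to 499, 502 and 481 FPKM (log2 fold change 0.33, adjusted p = 0.0365). The ubiquitin ligase gene Siah2 and Yap1, a co-activator of the Hippo pathway, rose by log2 fold changes of 0.41 and 0.33, and the cysteine dioxygenase gene Cdo1 and Kbtbd8, an adaptor of cullin ligases, by 0.58 and 0.35. The calls of Btg4, Yap1 and Cdo1 were lost when any 1 of the 6 libraries was left out. Those of Tmsb10 and Siah2 were lost without any 1 library other than 3-month library 2, and that of Kbtbd8 without any 1 other than 3-week library 2 or 3-month library 3.

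On the falling side, Mef2b, a MADS-box transcription factor gene, was at 42.5, 41.5 and 38.3 FPKM at 3 weeks and at 13.9, 11.1 and 14.1 at 3 months (log2 fold change -1.58 ± 0.229, SE; limma adjusted p = 2.99e-04). Mid1, the gene of a microtubule-associated E3 ubiquitin ligase, was at 57.8, 59.2 and 60.2 FPKM at 3 weeks and at 26.8, 28.1 and 30 at 3 months, a log2 fold change of -1.04. The ages were separate for both. Mid1 was also lower at 3 months in deletion oocytes, with means of 40.2 and 22.8 FPKM (log2 fold change -0.80, adjusted p = 3.43e-05). The abundant falling genes were Polr2j, a subunit of RNA polymerase II, Miox, a myo-inositol oxygenase, Hypk, an interactor of huntingtin, Cnpy4, the proteasome subunit gene Psmb6 and the aldo-keto reductase gene Akr1a1. Polr2j went from a mean of 351 to 252 FPKM, Miox from 325 to 233 and Hypk from 299.7 to 194, with log2 fold changes of -0.48, -0.48 and -0.63. Of these 6, Hypk kept its call under every alternative tried.

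Inha, which encodes the inhibin alpha subunit made by granulosa cells, fell in the 3-month wild type. It was at 22.6, 15 and 17.8 FPKM at 3 weeks and at 2.23, 3.79 and 4.01 at 3 months (log2 fold change -2.17 ± 0.512, SE; limma adjusted p = 0.02). The ages did not overlap, but the call was lost without 3-week library 1 or 3 or without 3-month library 1 or 2, with an adjusted p of up to 0.104. The 19 granulosa and cumulus markers summed to 52.1 to 65.9 FPKM at 3 weeks and to 40.2 to 43.4 at 3 months, and 2 of the 19 were listed at 0 in all libraries of either age. These sums include Inha, whose own fall is about as large as the difference between them, so they are no separate sign of a wider fall. Of the 9 markers among the genes described, Inha alone passed the test, and their median log2 fold change was -0.62. Gdf9-Cre oocytes of the same age as the 3-month wild type held 63.3, 33.6 and 24.0 FPKM of Inha and a marker sum of 96.2 to 186 FPKM. In such bulk samples fewer cells of a type and less RNA per cell cannot be told apart, and the part of attached follicle cells in the fall of Inha was not tested. Summed blood and immune markers were at 17.5 to 21.4 and 15 to 19.4 FPKM, and endothelial markers at 28.4 to 29.8 and 28.5 to 32.7 FPKM.

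Transcripts known from testis were among the large falls. Fabp9, a fatty acid-binding protein gene of spermatids, was at 7.06, 8.47 and 6.24 FPKM at 3 weeks and at 0, 0.388 and 0 FPKM at 3 months (log2 fold change -2.88 ± 0.204, SE; limma adjusted p = 3.77e-08). Rsph1, which encodes a radial spoke head protein of cilia and flagella, was at 9.29, 11.2 and 9.09 FPKM at 3 weeks and at 0.350, 0.168 and 1.23 at 3 months, a log2 fold change of -2.83. Every 3-week value lay above every 3-month value for both. Crisp2, a sperm-head secretory protein gene, was at 1.94, 3.81 and 4.38 FPKM at 3 weeks, and Adam3, needed in mice for sperm to reach and bind the egg, was at 1.80, 1.63 and 1.97 FPKM. Hspb9, a small heat-shock protein gene of testis, was at 1.25, 5.62 and 3.89 FPKM, and Ldhal6b at 2.73, 2.66 and 2.11 FPKM. All 4 of these genes were listed at 0 in each 3-month wild-type library, and all 4 passed as lower.

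A list of 90 genes known from male germ cells was composed after these falls had been seen, so its counts are a description only. Of its 47 members among the genes described, 29 were called lower and 0 higher, beside 1.75% called lower over all genes, and the median log2 fold change was -1.09. They included Dkkl1, Meig1, Pgam2, Ropn1l, Spata4, Tcp11, Cetn1, Acrbp, Clgn and Hspa2. The list summed to 387 to 406 FPKM in the 3-week wild type and 319 to 362 in 3-week Zp3-Cre oocytes. It summed to 251 to 264 FPKM in the 3-month wild type and 255 to 282 in Gdf9-Cre oocytes, and to 371 to 402 in wild-type zygotes and 527 to 674 in wild-type 2-cell embryos. The 29 called genes had a median FPKM of 3.19 in the 3-week wild type and 2.84 in 3-week Zp3-Cre oocytes. Their median was 0.105 in the 3-month wild type and 0.284 in Gdf9-Cre oocytes, and 4.44 to 4.95 in the 4 zygote and 2-cell groups. The 29 were picked by their fall in the 3-month wild type, so its low median follows from that choice. The Gdf9-Cre median was low too, and the medians of the 6 other groups were higher. However, 9 of the 29 had a mean of at least 1 FPKM in Gdf9-Cre oocytes, against 4 in the 3-month wild type. Cox8c was at 20.7 FPKM in Gdf9-Cre and 5.83 in 3-week wild-type oocytes, and Clgn at 2.63 and 3.19.

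For Fabp9, the libraries with low levels were those with the other composition of the ERCC and RGC entries. Fabp9 was between 6.24 and 15.4 FPKM in the 17 libraries with the RGC-GFP to RGC-mRFP ratio above 3, and between 0 and 0.388 in the 6 3-month libraries. Within those 17 libraries the 6 of 3-week oocytes held 934 to 2439.7 FPKM of RGC-GFP and 6.24 to 9.01 of Fabp9, while those of zygotes and 2-cell embryos held 4619 to 21734 FPKM of RGC-GFP and 9.02 to 15.4 of Fabp9. Stage and RGC-GFP changed together there, and within a stage the order was mixed. The 2-cell library with the least RGC-GFP, 11105 FPKM, had the most Fabp9, while wild-type zygote library 1 had the most of both in its group. In all, 62 of the 77 genes with large falls had a mean FPKM under 1 in the 3-month wild type. Of these 62, 49 were at 1 or more in 3-week Zp3-Cre oocytes, 55 in wild-type zygotes and 55 in wild-type 2-cell embryos. A mean FPKM under 1 in both 3-month groups held for 48 of the 77 genes, and 34 of these were at 1 or more in all 6 other groups. The part of library preparation in this pattern was not tested.

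**Figure D3:**
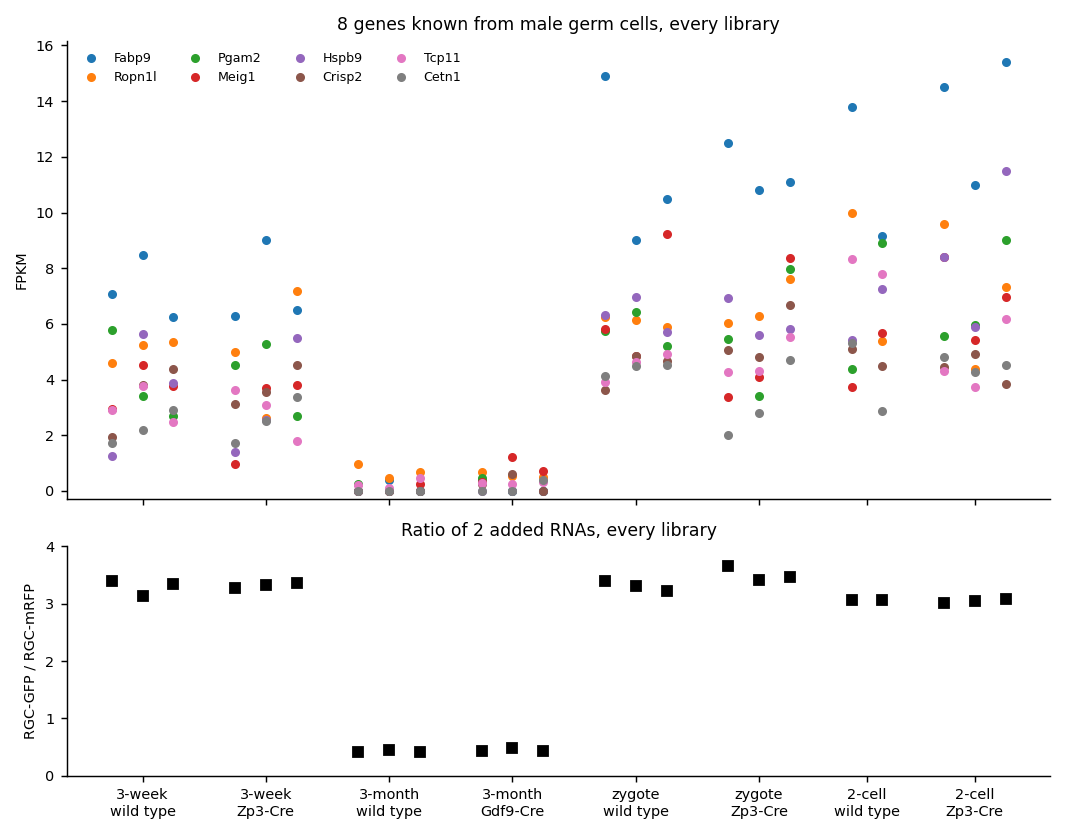
FPKM of 8 genes known from male germ cells (upper panel) and the ratio of RGC-GFP to RGC-mRFP (lower panel) in every library of the study, by group on the x axis. Both 3-month groups are low in the 2 panels: the ratio is 0.408 to 0.478 there and 3.01 to 3.65 elsewhere. The list was composed after the falls had been seen, and the 8 genes do not stand for all of it. Of its 47 members among the genes described, 29 were called lower in the 3-month wild type and 18 did not pass. Among those called, Cox8c was at a mean of 20.7 FPKM in Gdf9-Cre and 5.83 in 3-week wild-type oocytes, and Clgn at 2.63 and 3.19.

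By group means, 13 genes with large falls had an FPKM plus 1 at least 2-fold lower in the 3-month wild type than in each other GV group. Rsph1 was among them although it was low in both 3-month groups, with 10.5 FPKM in Zp3-Cre and 2.35 in Gdf9-Cre oocytes. Besides Inha the 13 included Mt1, a metallothionein gene that binds zinc and copper, and Cox8c, a testis-type subunit of cytochrome c oxidase. Mt1 was at 4.89, 5.57 and 5.58 FPKM at 3 weeks and at 0.556, 1.58 and 1.49 at 3 months (log2 fold change -1.56 ± 0.223, SE; limma adjusted p = 2.80e-04), without overlap. Deletion oocytes held 78.3 FPKM of Mt1 at 3 weeks and 9.05 at 3 months. Cox8c was at 4.28, 8.42 and 4.78 FPKM at 3 weeks and at 0.718, 0.676 and 0.946 at 3 months, and at 12.1 and 20.7 FPKM in the deletion groups. The sorbitol dehydrogenase gene Sord was at 3.29, 3.33 and 3.18 FPKM at 3 weeks and at 0.158, 0.381 and 0.283 at 3 months. In the other direction, 6 genes were high in the 3-month wild type alone: Vmn1r112, Vmn1r132, Vmn1r157, Zfp111, Il20 and 1810041L15Rik. Ptp4a1, a prenylated phosphatase gene, was the 1 gene whose mean FPKM plus 1 was at least 2-fold higher in both 3-month groups than in both 3-week groups, with wild-type means of 0.359 and 2.2 FPKM.

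Large changes lay side by side on 2 chromosomes. RefSeq gene order on GRCm38.p6 placed 11016 of the 11071 genes. In 25-gene windows of these, the median number of called genes was 1 and the 99th percentile was 5, over 10536 overlapping windows. The window from Relb to Zfp94 on chromosome 7 held 14 called genes, of which 11 were higher, 3 were lower and 9 changed at least 2-fold. The window from 1500009C09Rik to 1810041L15Rik on chromosome 15 held 11, of which 3 were higher and 8 lower. Of 97 placed genes with at least 2-fold changes, 12.4% had such a gene as next neighbour, against 1.70% of all placed genes. The labels give no strain for either age.

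On chromosome 7 the rises included vomeronasal receptor and zinc-finger genes. Zfp109 was at 4.17, 3.10 and 3.20 FPKM at 3 weeks and at 16.2, 14.5 and 16.5 at 3 months (log2 fold change 1.90 ± 0.163, SE; limma adjusted p = 4.65e-07). Its neighbour Zfp108 was at 42.6, 40.7 and 44.4 FPKM at 3 weeks and at 86.2, 81.9 and 79.3 at 3 months, a log2 fold change of 0.94. Both were separate between ages. The 250 bases before their RefSeq starts, at chr7:24237599-24237848 (minus strand) and chr7:24254544-24254793 (plus strand) on GRCm38.p6, are shown because both hold the 13-base motif TGGGAANTGTAGT, part of a sequence known to be bound by ZNF143, marked in capitals.
Zfp109: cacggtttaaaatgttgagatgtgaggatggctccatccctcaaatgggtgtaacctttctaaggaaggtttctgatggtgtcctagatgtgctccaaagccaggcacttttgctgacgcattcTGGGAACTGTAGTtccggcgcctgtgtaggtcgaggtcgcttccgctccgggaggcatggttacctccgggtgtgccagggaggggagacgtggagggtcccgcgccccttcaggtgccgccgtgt
Zfp108: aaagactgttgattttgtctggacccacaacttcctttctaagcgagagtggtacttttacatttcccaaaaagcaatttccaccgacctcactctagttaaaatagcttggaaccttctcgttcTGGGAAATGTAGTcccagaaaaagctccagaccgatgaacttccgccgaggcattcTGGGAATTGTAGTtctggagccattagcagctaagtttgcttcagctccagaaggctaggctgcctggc
The motif was searched on both strands and was found 1 time in Zfp109 and 2 times in Zfp108. It was present in 1.7% of the 8461 promoters of the genes described and in 0.784% of all 27025 RefSeq promoters. A match describes the letters only.

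In the same window Zfp111 was at 0.933, 0.813 and 1.4 FPKM at 3 weeks and at 5.08, 3.98 and 4.96 at 3 months, while Zfp94 went the other way, from 9.43, 11.4 and 10.7 FPKM to 5.27, 6.48 and 5.54. The vomeronasal receptor genes Vmn1r112, Vmn1r132 and Vmn1r157 rose from means of 0.462, 0.216 and 0.481 FPKM to 3.79, 2.74 and 3.81 FPKM. They belong to a family of close copies between which reads could be split, so values of single members are uncertain. Vmn1r112 and Vmn1r157 had nearly the same values in each library, so they may not be separate signals in the counts of called and neighbouring genes. In Zp3-Cre oocytes these 3 genes were at 1.24, 0.584 and 1.26 FPKM and in Gdf9-Cre oocytes at 0.265, 0.322 and 0.252. The gene model Gm4541, between these receptors in RefSeq order, fell from 31.5, 34.4 and 29.3 FPKM to 11.8, 8.06 and 12.5 FPKM. Tomm40, for the pore of the outer mitochondrial membrane translocase, rose from a mean of 18.4 to 26.7 FPKM.

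On chromosome 15 the window around Pnpla3 and Samm50 also held Nfam1, an immune receptor gene, which went from 4.55, 5.14 and 4.77 FPKM to 0.268, 0.602 and 0.224 FPKM (log2 fold change -2.10, adjusted p = 0.00240). Mcat, the malonyl transferase of mitochondrial fatty acid synthesis, went from 24.3, 23.8 and 25 FPKM to 14.9, 14.2 and 12 FPKM. Rrp7a, a ribosomal RNA processing gene, went from a mean of 33.9 to 18.2 FPKM. Poldip3 moved the other way, from 8.28, 6.21 and 7.73 FPKM to 13.3, 12.2 and 12.6 FPKM. None of these 4 genes overlapped between ages.

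**Figure D4:**
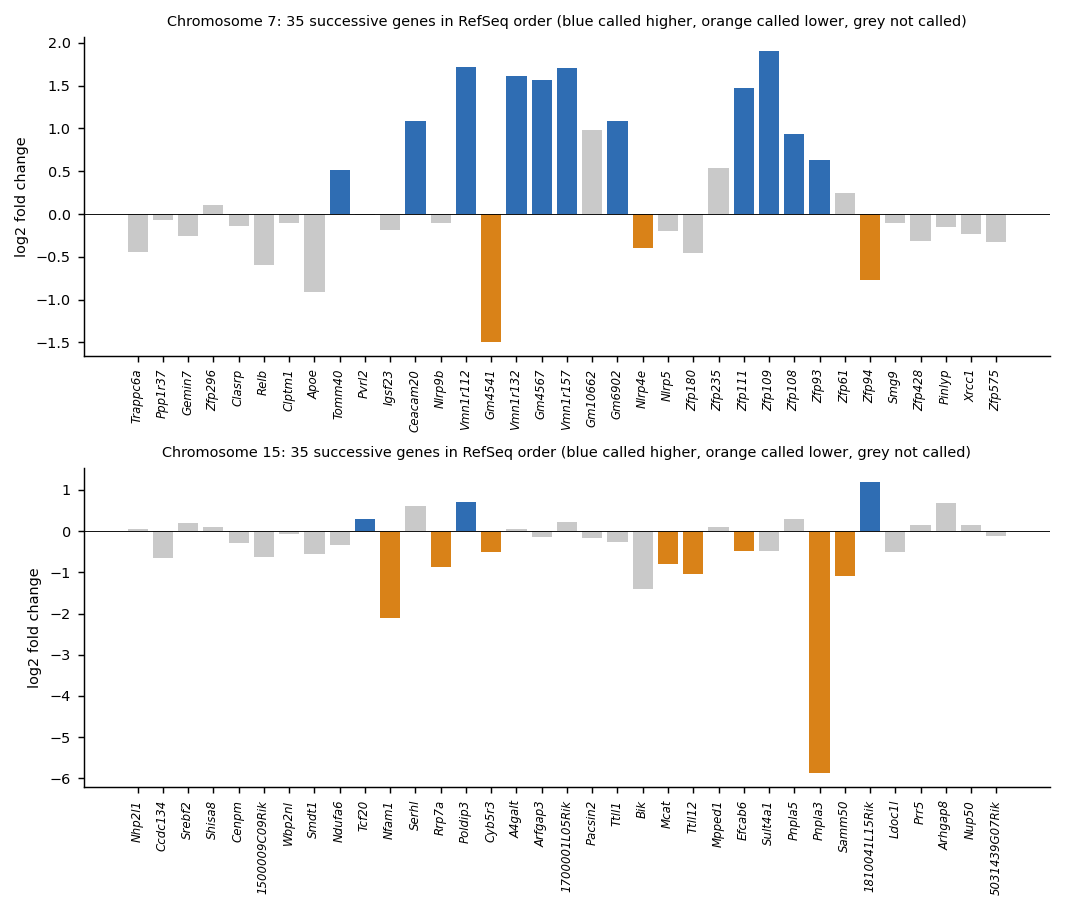
Log2 fold change (3 months over 3 weeks, y axis) of 35 successive genes in RefSeq order around each of the 2 windows with most called genes, on chromosome 7 (upper panel) and chromosome 15 (lower panel); blue bars were called higher, orange bars lower, and grey bars were not called. Rises and falls sit next to each other, and Pnpla3 is the longest bar.

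Most genes that govern chromatin and RNA turnover did not pass, and a few rose. Of 43 polycomb and H3K9 methylation genes, 4 rose, 0 fell and 39 did not pass, beside 2.78% called higher over all genes, and the median log2 fold change was 0.06. Suz12, a core subunit of the H3K27 methyltransferase, went from 50.1, 53.0 and 54.3 FPKM to 79.6, 77.5 and 73.8 FPKM (log2 fold change 0.54 ± 0.0873, SE; limma adjusted p = 8.48e-04). Atrx, a chromatin remodeller of repeats, went from 14.9, 14.0 and 15.6 FPKM to 24.5, 23.4 and 22.1 FPKM (log2 fold change 0.62). The ages of both were separate. The others were Bmi1 and Suv39h2, and 3 of the 43 genes rose with median-of-ratios scaling. The call of Bmi1 was lost when any 1 of the 6 libraries was left out. Of 25 genes for H3K4 methylation and demethylation, Kdm6a, which is an H3K27 demethylase found with KMT2C and KMT2D, was the 1 that passed, from 23.1 to 29.7 FPKM on average. That count is near the 4.53% called over all genes, and 0 of the 25 passed with median-of-ratios scaling.

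Of 52 genes for deadenylation, uridylation and mRNA decay, 6 rose, 0 fell and 46 did not pass, beside 2.78% called higher over all genes, with a median log2 fold change of 0.03. Cnot6l, a catalytic deadenylase of CCR4-NOT, went from 38.3, 39.9 and 39.2 FPKM to 61.3, 60.6 and 57.5 FPKM (log2 fold change 0.60 ± 0.0989, SE; limma adjusted p = 0.00117). Its ages were separate, and its call held under every alternative. Zfp36, which destabilises AU-rich mRNA, went from 0.413, 0.506 and 0.559 FPKM to 2.83, 1.72 and 3.14 FPKM (log2 fold change 1.23, adjusted p = 0.0454). The call of Zfp36 was lost when any 1 of the 6 libraries was left out, with an adjusted p of up to 0.161. The others were the deadenylation adaptor Tob1, the deadenylase Cnot7, the decapping enzyme Dcp2 and Btg4. Dcp2 and Btg4 also lost their calls when any 1 of the 6 libraries was left out, and Cnot7 without 3-week library 1 or 3-month library 1. With median-of-ratios scaling 4 of the 52 rose. Of 49 genes that store and translate maternal mRNA, 3 rose (Pum2, Cpeb3 and Nanos1) and 0 fell, beside the same 2.78%. The call of Cpeb3 was lost without any 1 library other than 3-week library 2.

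Of 26 cohesin and meiotic axis genes, 4 rose and 0 fell, beside 2.78% called higher over all genes, with a median log2 fold change of 0.12. Esco1, which acetylates cohesin, went from 18.7, 18.7 and 17.8 FPKM to 26.8, 27.3 and 23.9 FPKM (log2 fold change 0.47, adjusted p = 0.00270). Rad21, the mitotic kleisin, went from a mean of 40.3 to 53.2 FPKM and the axis gene Sycp2 from 6.43 to 10.3, and the fourth was the cohesin-release gene Wapal. Ubiquitin genes had members in both directions. Of 33 ubiquitin-conjugating enzymes 2 rose and 1 fell, and Ube2d2a went from 112, 119 and 115 FPKM to 172, 174 and 167 FPKM (log2 fold change 0.56). Of 45 USP deubiquitinases 4 rose, among them Usp9x from a mean of 52.4 to 72.5 FPKM. Of 231 Zfp-named zinc-finger genes 11 rose and 2 fell, and those of the chromosome 7 window were among them. These counts stand beside 2.78% called higher and 1.75% called lower over all genes. With median-of-ratios scaling, which called 214 genes higher in all, 2 cohesin and axis, 2 USP and 9 Zfp-named genes rose.

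Genes of the protein-making and respiratory machinery leaned lower without passing the test gene by gene. Of 84 cytosolic ribosomal protein genes, 1 was called lower (Rpl39l, a testis-enriched paralog) and 83 did not pass, but 82 had a negative log2 fold change, since 2 were positive, and the median was -0.31 (-0.31 under median-of-ratios scaling and -0.25 after quantile normalization). Their summed FPKM was 12799 to 13944 at 3 weeks and 10396 to 10821 at 3 months, which did not overlap. In the fit on the 6 wild-type libraries 57 of the 84 were called lower, beside 13.8% over all genes. Many of them have near-identical pseudogenes between which reads could be split. Of 84 nuclear-encoded oxidative phosphorylation genes, Cox8c, Cox6b2 and Ndufa13 were called lower, 0 were called higher and the median was -0.26. The summed FPKM of these was 6043 to 6402 at 3 weeks and 4851 to 5124 at 3 months, and 45 of them were called lower in the 6-library fit. Of the called ones, Cox8c and Cox6b2 encode testis-type subunits.

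Of 77 mitochondrial ribosomal protein genes 2 were called lower (Mrps23 and Mrps25) and the median was -0.17, and of 42 proteasome genes 2 were called lower (Psmb6 and Psmd2), with a median of -0.13. These counts stand beside 1.75% called lower over all genes, and those of the mitochondrial ribosomal proteins are near it. The calls of Mrps23, Mrps25 and Psmd2 were lost when any 1 of the 6 libraries was left out. Psmb6, a catalytic beta subunit, went from 167, 184 and 174 FPKM to 129, 123 and 129 FPKM. Psmd2, of the regulatory particle, went from a mean of 100.3 to 83.9 FPKM. Of 35 clustered histone genes Hist1h2ap was called lower, and the median was -0.31, and most mRNAs of this kind lack a poly(A) tail. In the deletion oocytes the median for 3 months against 3 weeks was 0.16 for cytosolic ribosomal proteins, 0.13 for oxidative phosphorylation and -0.06 for clustered histones. Over all genes that median was 0.07, and it was -0.04 with median-of-ratios scaling.

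No gene passed, in either direction, among 38 genes of meiotic arrest and resumption, 42 of the spindle checkpoint and kinetochore, 65 of DNA damage and repair, 36 of antioxidant defence, 48 of glycolysis and the citrate cycle, 55 splicing factors and 28 nucleoporins. Over all genes 4.53% passed, so few calls could be looked for in any of these lists. In the 6-library fit each list had called members. There 8 meiotic arrest genes were higher and 1 lower, and 2 glycolysis and citrate cycle genes were higher and 10 lower. In that fit 12.5% of all genes were higher and 13.8% lower. Mos, the kinase that starts the meiotic MAP kinase cascade, was at 239, 218 and 228 FPKM at 3 weeks and at 250.2, 247 and 257 at 3 months (log2 fold change 0.14 ± 0.273, SE; limma adjusted p = 0.905). The SE of Mos also took in groups outside this comparison, such as Zp3-Cre 2-cell embryos at 4.79, 2.34 and 11.9 FPKM. Bub1b, for the checkpoint kinase BubR1, was at 499.7, 459 and 514 FPKM at 3 weeks and at 503, 468 and 504 at 3 months, and these overlapped. Ccnb1, for cyclin B1, was at 271, 261 and 267 FPKM at 3 weeks and at 314, 312 and 301 at 3 months. The values of Ccnb1 did not overlap, but it did not pass (adjusted p = 0.458), as was so for 2336 genes higher and 2437 lower at 3 months without overlap, called or not. A p that misses the threshold does not show that levels were equal.

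**Figure D5:**
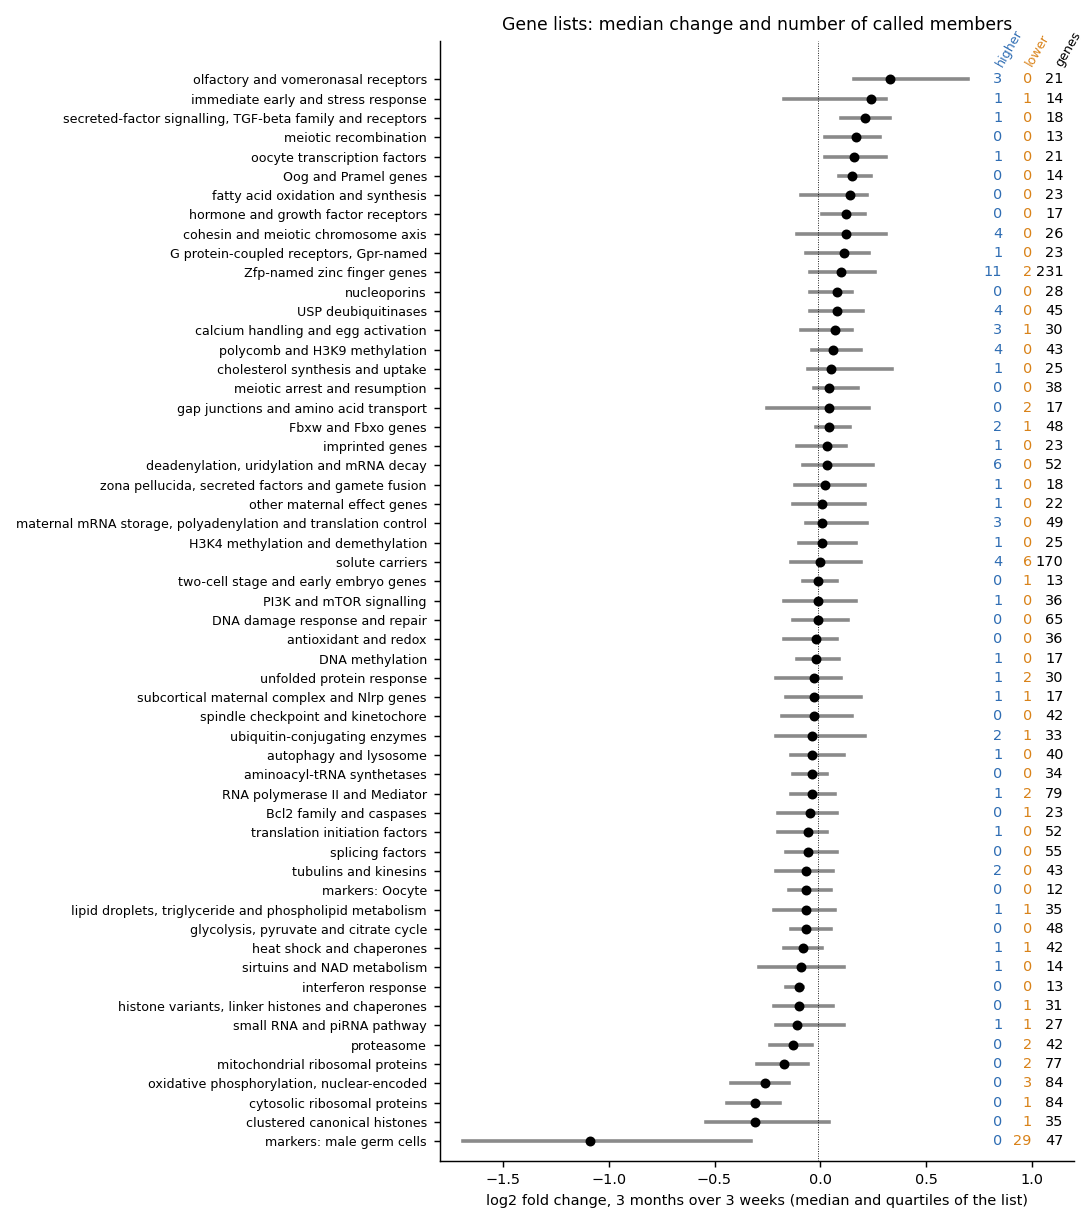
Median (point) and quartiles (line) of the log2 fold change of 3 months over 3 weeks in each gene list with at least 10 genes, with the numbers called higher and lower and the number of genes at the right; the dotted line is the median of all genes, -0.01. Ribosomal protein, oxidative phosphorylation, histone and male germ cell lists lie lowest, the last of them chosen after values were seen.

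Transporters held some of the largest single changes. Of 170 solute carriers 4 rose and 6 fell, with a median of 0.00. The rises were near the 2.78% called higher over all genes, and the falls were above the 1.75% called lower. Slc2a3, a high-affinity glucose transporter gene, was at 3.72, 3.81 and 3.99 FPKM at 3 weeks and at 0.0854, 0.0412 and 0.0307 at 3 months (log2 fold change -2.20 ± 0.116, SE; limma adjusted p = 6.18e-10). Slc2a3 is also abundant in male germ cells, and it was at 0.116 FPKM in Gdf9-Cre and 3.21 FPKM in Zp3-Cre oocytes. Slc6a7, a proline transporter gene, went from 50.2, 52.7 and 52.8 FPKM to 35.4, 37.7 and 36.0 FPKM. Both were separate between ages. Hspa2, a chaperone gene needed for male meiosis, fell from a mean of 5.60 to 1.96 FPKM.

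Across called genes of either direction, the span of the gene differed. Genes called higher had a median span of 45.9 kb in RefSeq, genes called lower 13.8 kb and all genes 24.1 kb, with a span for 11023 of the 11071 genes. Large changes did not follow this order, with a median of 9.63 kb for genes at least 2-fold higher and 14.0 kb for genes at least 2-fold lower. Over 10 classes of rising span the median log2 fold change went from -0.15 in the shortest class to 0.09 in the ninth and 0.07 in the longest. Across genes, which are not independent, Spearman's rho of span and log2 fold change was 0.288. The same correlation for 3-month Gdf9-Cre against 3-week Zp3-Cre oocytes was -0.0736. Ribosomal protein genes, with a median span of 3.17 kb, are at one end and cohesin genes, with 44.9 kb, near the other, but the olfactory and vomeronasal receptor genes, whose median log2 fold change was 0.33, had a median span of 1.00 kb. The part of transcript length or RNA integrity in these differences was not tested.

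The deletion oocytes give a second contrast of 3 months with 3 weeks that shares no library with the wild type, though the Cre driver changes with age there. The composition of the added RNAs changes too. The ratio of RGC-GFP to RGC-mRFP was 3.28 to 3.36 in the 3-week Zp3-Cre libraries and 0.435 to 0.478 in the Gdf9-Cre libraries. Age thus cannot be told apart from the preparations in either contrast, and a shared direction is no independent support. Of the 11071 genes, 1655 (14.9%) were called in it, with 1124 higher and 531 lower. Scaling changes this balance: higher genes were 67.9% of the calls as deposited, 36.2% with median-of-ratios scaling and 41.5% after quantile normalization. Of the 77 wild-type genes with large falls, 67 also had a negative difference in deletion oocytes and 55 were called lower there, among them Fabp9, Slc2a3 and Rsph1. Of the 22 with large rises, 9 had a positive difference, 2 were called higher and 5 were called lower. Over all genes 55.6% had the same sign in both contrasts, and Pearson's r across genes was 0.220. The median difference in deletion oocytes was -1.03 for the 77 genes and -0.10 for the 22.

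The difference between the contrasts was itself tested, and 515 genes (4.65%) passed, with 286 higher and 229 lower in the deletion contrast relative to the wild type. Scaling turned this balance, to 124 higher and 339 lower with median-of-ratios and 147 higher and 385 lower after quantile normalization. Zfp109 was higher at 3 months in wild type. In deletion oocytes it had a mean of 8.55 FPKM in 3-week Zp3-Cre and 4.51 in 3-month Gdf9-Cre oocytes (log2 fold change -0.78, limma adjusted p = 0.00322). The difference of the differences was -2.68. Mtfr2 fell in wild type and was at 43.9 and 63.4 FPKM in deletion oocytes, a difference of 1.43. For Pnpla3, with under 1 FPKM in both deletion groups, the difference was 5.69. In Ldhc, the testis-type lactate dehydrogenase gene, the fall was shared, from 22.8, 21.4 and 19.8 FPKM to 12.3, 9.53 and 9.58 in wild type and from a mean of 24.6 to 10.5 FPKM in deletion oocytes.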

How the data were processed

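RNA libraries of mouse oocytes and embryos were made, per the labels' protocols, with a column kit for small RNA amounts and a NEBNext Ultra kit. The authors deposited FPKM values in a single table of 23 libraries. The tools listed, per the submitters' processing notes, include Cufflinks 2.2.1, SAMtools, TopHat2 2.0.12 and CASAVA 1.4, with builds mm10 and mm9. The build used for RNA, the strand setting and the control RNAs added were not given in the sources used here. The 95 ERCC and RGC entries, 0.402 to 0.707% of FPKM at 3 weeks and 0.216 to 0.257% at 3 months, were left out, and totals are without them. Names turned into dates by spreadsheet software (18 among the genes described) were tested but go unnamed.

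From the deposited FPKM, log2(FPKM + 1) was computed here. The limma package (version 3.58.1, under R 4.3.3) fitted 8 group means to the 23 libraries for the 13731 genes that reached an FPKM of 1 in 2 or more of them, using a trend of variance on level and 15 residual degrees of freedom. The threshold was 0.05 on p-values adjusted by Benjamini-Hochberg over all 13731 genes, and the procedure was tested on simulated data. An exact 0 can be a failed estimate. Strand was not used here, so overlapping genes cannot be told apart. The members and gene lists were chosen with earlier results of these data known. Genes were named by rule: the 15 largest rises and falls with a mean FPKM of at least 5 and no overlap, the 6 most abundant called genes per direction, up to 3 called genes per list (or the 2 highest where none passed) and Cxxc1. Nfam1, Manba, Pknox2, Sord, Il20, Ptp4a1, Mir7035, Rrp7a, Mcat, Poldip3, Tomm40, Zfp94, 1810041L15Rik Suv39h2, Cnot7, Dcp2, Wapal, and the male germ cell genes other than Fabp9, Rsph1, Dkkl1, Ldhc, Hspa2, Cox8c and Cox6b2 were chosen after their values were seen. Alternatives changed the pseudocount, low-value filter, scaling, libraries, weights, trend and replicate block. Promoters of called genes matched RefSeq for under 80%, so no comparison of promoter sets was made.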

Additional observations from a re-analysis of the deposited data

Results flagged for a closer look

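The difference between 3 months and 3 weeks was not the same in deletion and wild-type oocytes for 515 genes, by a limma test of the difference itself at an adjusted p under 0.05. Of the 30 genes named for the largest changes in wild type, 16 were among them, beside 4.65% over all genes. These 30 were picked by the wild-type difference, which is subtracted in this test. An excess of calls and a sign opposite to the wild-type change are therefore partly built in. Values below are the log2 difference in deletion oocytes minus that in wild type. It was -2.86 for Tceal8, -2.68 for Zfp109, -1.64 for Rbm44 and -1.38 for Gm10324, genes that rose in wild type. Further rising genes were Zfp108 at -1.33, Ceacam20 at -1.29, Slc23a3 at -1.14, Heca at -1.09 and 1700066M21Rik at -0.98. Among genes that fell in wild type it was 5.69 for Pnpla3, 3.06 for Inha, 1.98 for Ccdc109b, 1.43 for Mtfr2, 1.4 for Mef2b, 1.08 for Samm50 and 1.00 for C130074G19Rik. Age and Cre driver change together in the deletion oocytes and cannot be told apart there.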

How the results depend on the processing

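Of 163 named genes that passed, 74 passed under every alternative and 0 reversed. The median-of-ratios scaling lost 36 calls, quantile normalization 24, no filter 23, no trend 21 and a pseudocount of 0.1 lost 15. Leaving out 1 library lost 57 (3-week library 2) to 72 (3-week library 1). Those that lost calls under scaling include Btg4, Yap1, Siah2, Zfp36 and Ralgds. The total of 502 became 1740 with the 12 GV libraries, 2910 with the 6 wild-type ones, 3029 with array weights, 792 without Zp3-Cre 2-cell library 3, and 239 (without 3-week library 1) to 292 (without 3-week library 2) with 1 of the compared libraries left out, where 1 group had fewer libraries. The 99 genes changed at least 2-fold became 31 where an FPKM of at least 5 was required, by construction, and 85 to 97 with 1 of the compared libraries left out. In deletion oocytes 1655 became 998 with that floor, 3548 with 12 GV libraries, 3504 with array weights, 2297 without Zp3-Cre 2-cell library 3, and 923 (without Gdf9-Cre library 2) to 1517 (without 3-week Zp3-Cre library 3) with 1 of the compared libraries left out. The 515 genes that differed between contrasts became 311 with a pseudocount of 0.1, 2040 with 12 GV libraries, 2610 with array weights, 972 without Zp3-Cre 2-cell library 3, and 262 (without 3-week wild-type library 2) to 591 (without 3-week Zp3-Cre library 3) with 1 of the compared libraries left out. The share of higher genes in these was 55.5%, against 26.8% with median-of-ratios scaling and 27.6% after quantile normalization. Gdf9, which did not pass, went from -0.13 to 0.00 after quantile normalization. Other causes were not tested.

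Replicate numbers did not pair the libraries: deviations of same-numbered wild-type libraries correlated at -0.0408, 0.0277 and 0.0429. A replicate block gave 365 calls for age in wild type, 2846 with the 6-library fit, 95 genes changed at least 2-fold, 1503 calls in deletion oocytes and 223 for the difference.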

Other observations

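Entries named RGC-CRE were listed above 0 in every library from Zp3-Cre females, at 4.82, 5.92 and 2.03 FPKM in the 3-week GV oocytes. They were listed at 0 in all 6 3-month libraries, those of Gdf9-Cre females included, and at 0 in the 3-week wild type. The sequence behind this name is not given in the sources used here. The summed ERCC entries did not separate the wild-type ages, with 571, 341 and 452 FPKM at 3 weeks and 461, 526 and 575 at 3 months (exact permutation test, two-sided, p = 0.40). RGC-GFP did, with 1711, 934 and 1292 FPKM at 3 weeks and 117, 89.7 and 114 at 3 months. RGC-mRFP was also higher at 3 weeks, with 503, 298 and 386 FPKM against 285, 201 and 279, by a smaller margin.

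Plin2 and Tceal8 were uneven among wild-type zygote libraries. Plin2 was at 7.56, 19 and 7.04 FPKM and Tceal8 at 7.18, 34.6 and 5.21 FPKM in zygote libraries 1 to 3, and Pnpla3 was at 2.66, 0.195 and 4.81 FPKM in the same libraries. Library 2 was thus the high one for Plin2 and Tceal8 and the low one for Pnpla3. In the 3-week wild-type oocytes Plin2 and Tceal8 were low and Pnpla3 was high in each library.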
